A study of Arabidopsis thaliana with 4 samples.

Results

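The RNA of 30 Arabidopsis thaliana WRKY genes with known roles in defence and stress was compared between vim1,2,3 seedlings and wild-type Col seedlings. The 30 genes were taken by locus, and each had at least 1 probe, among 25347 genes with a probe. They were matched by 43 probes. Of the 30, 25 were bright enough to be tested among 20490 genes, meaning that 1 or both channels of their probe were well above background on 3 or 4 of the 4 arrays. Levels are log2 signals after normalization, and a log2 ratio is vim1,2,3 over Col on the same array, so 1 is a 2-fold difference.

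WRKY proteins are plant transcription factors named after the short peptide motif in their DNA-binding domain, which recognises a promoter element called the W box. Many WRKY genes are switched on within minutes to hours of pathogen contact, wounding or salicylic acid, the hormone of defence against biotrophic pathogens. Some members promote defence and others restrain it, and WRKY factors also act in leaf senescence, phosphate supply and responses to abscisic acid.

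Both groups were seedlings aged 14 days, grown in a cycle of 16 h light and 8 h dark and collected 6 h after the lights came on. The mutant plants carried the genotype vim1,2,3, which the series calls a triple, and the plants they were set against were wild-type Col. VIM1, VIM2 and VIM3 encode proteins that bind methylated DNA and keep CG methylation in place. The alleles, and whether plants were pooled, are not stated in the labels. Each of the 4 arrays held vim1,2,3 RNA in Cy5 and Col RNA in Cy3, and the series calls them independent biological samples. The dyes were never swapped, so dye and genotype cannot be told apart.

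The median raw signal on arrays 1 to 4 was 949, 967.5, 1718 and 1312 in vim1,2,3, and 670.5, 637, 1270.5 and 966 in Col. Well above background were 69.6%, 68.6%, 81.1% and 81.5% of probes in vim1,2,3, and 75.8%, 77.8%, 85.2% and 84.3% in Col. In both channels, arrays 3 and 4 were thus above arrays 1 and 2 by both measures. The cause was not tested. The targeted genes did not follow the label on all arrays. VIM1 was lower in vim1,2,3 on 4 of 4 arrays, with log2 ratios of -2.22, -2.46, -1.61 and -0.74 on arrays 1 to 4 (mean -1.76 ± 0.77 SD, n = 4, adjusted p = 0.0251). VIM2 had -1.42, -1.31, 1.82 and 1.11, and VIM3 had -1.06, -1.29, 1.61 and 0.25. Both were thus lower on arrays 1 and 2 and higher on arrays 3 and 4, against the label. Where the probes lie relative to the mutations is not known here. Whether the dyes and samples of arrays 3 and 4 match their labels was not tested either, so the sign of the ratios there rests on the labels. Across all genes tested, the ratios of each pair of arrays correlated at 0.365 to 0.668 (Pearson's r over genes, which are not independent replicates). The group below is therefore called the RNA labelled vim1,2,3, and counts are also given without arrays 3 and 4. Of 5 leaf markers tested and 3 seed markers tested, 0 were called. At an unadjusted p under 0.05, 3 leaf markers (GAPA, RBCS1A and RCA) and 1 seed marker (SESA3) had mean ratios below 0. Their spots were saturated in vim1,2,3 on 4 of 4 arrays, so no direction is read from them. Of 5 root markers tested 0 were called, with 1 higher and 2 lower at an unadjusted p under 0.05. Of the 2 lower, NRT2.1 was well above background in vim1,2,3 on 0 of 4 arrays and in Col on 3 of 4. It passed the filter through Col, so its direction is not read further. Of 4 flower markers, PI was called lower (-2.20, adjusted p = 0.0111), and AG (-0.92, adjusted p = 0.0444) fell short of 2-fold. Both were well above background in vim1,2,3 on 2 of 4 arrays and in Col on 4 of 4, so they passed the filter through Col, and the size of their ratios is not read further. Of 3 senescent leaf markers tested, SAG13 was called higher. In whole seedlings, fewer cells of a type and less RNA per cell cannot be told apart.

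Of the 25 WRKY genes tested, 5 were higher in the RNA labelled vim1,2,3 and 20 were not called. A gene was called at a limma adjusted p under 0.05, over all genes tested, together with at least a 2-fold mean difference. Those higher were WRKY50, WRKY54, WRKY38, WRKY25 and WRKY63, 5 of 25 against 3.24% of all genes tested, and 0 were lower, against 2.14% of all genes. By adjusted p alone, 6 were higher, against 5.77% of all genes, and 1 was lower (WRKY70, whose spot was saturated), against 5.95%. At an unadjusted p under 0.05, 18 were higher, against 15.2% of all genes, and 1 was lower (WRKY70 again), against 18.3%. The mean log2 ratio was above 0 in 24 of the 25, against 45.8% of all genes, and reached 2-fold in 12, against 4.99%. The median over the 25 genes was 0.99, and over all genes -0.05.

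**Figure D1:**
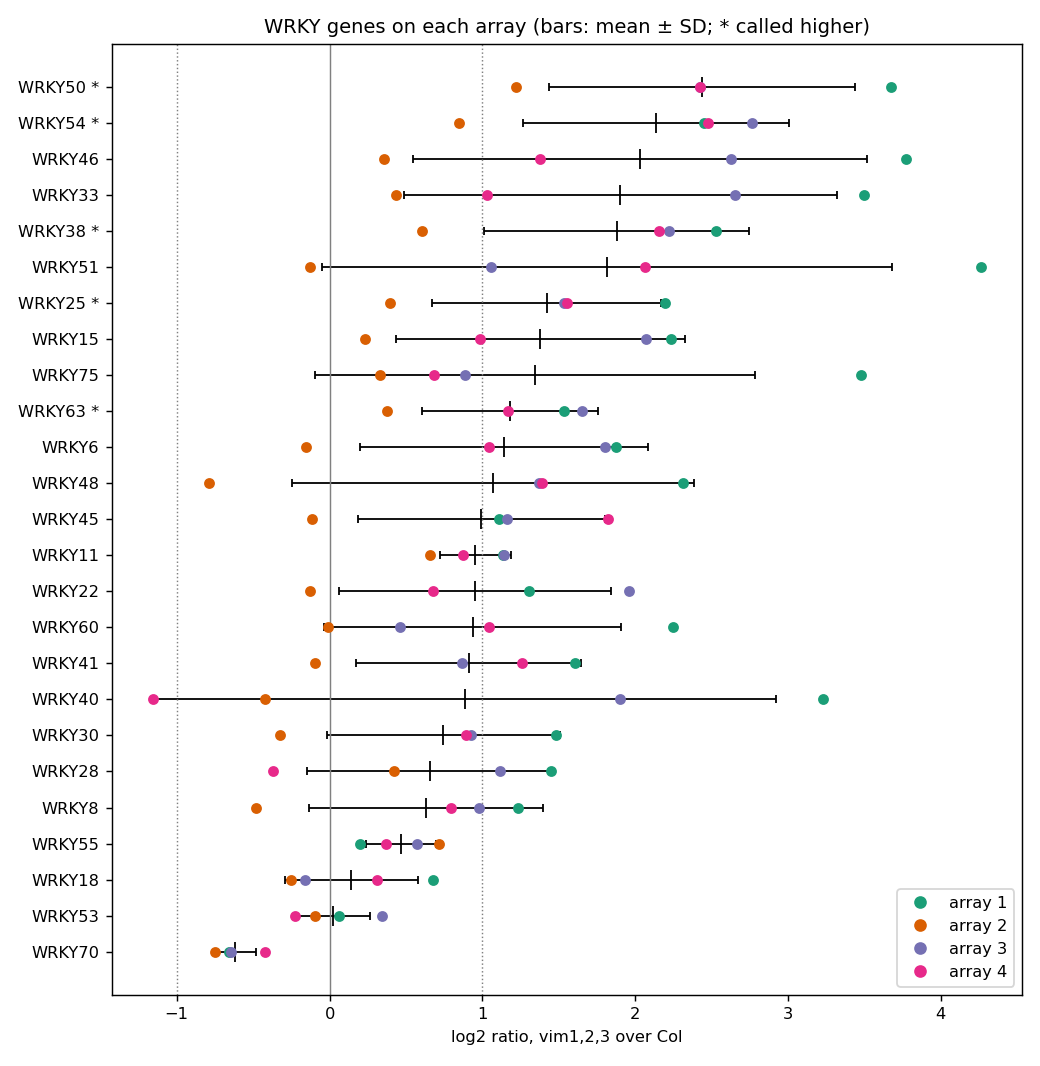
Log2 ratio of vim1,2,3 over Col (horizontal axis) for each of the 25 WRKY genes tested (rows), with a point per array, the mean and SD as black bars, dotted lines at a 2-fold difference, and an asterisk at each gene called higher. Means run from 2.43 for WRKY50 at the top to -0.62 for WRKY70 at the bottom, and in 21 of the 25 genes the lowest point is array 2.

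Among the genes tied to salicylic acid, WRKY50 (AT5G26170) had the largest mean ratio of the 25. WRKY50, with its close relative WRKY51, is known to hold back jasmonate signalling when salicylic acid is high. Its log2 signal was 12.90, 10.96, 12.41 and 12.48 in vim1,2,3 on arrays 1 to 4, and 9.23, 9.73, 9.99 and 10.06 in Col. Every vim1,2,3 value was above every Col value, and array 2 held the lowest vim1,2,3 value. The log2 ratios were 3.67, 1.22, 2.42 and 2.42, a mean of 2.43 ± 1.00 (SD, n = 4), which is 5.41-fold higher with an adjusted p of 0.0198. A second WRKY50 probe averaged 2.28. WRKY51 (AT5G64810) had ratios of 4.26, -0.13, 1.06 and 2.07 (mean 1.81 ± 1.86, adjusted p = 0.116). Array 1 alone stood more than 2 log2 units above the rest, and WRKY51 was not called.

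WRKY54 (AT2G40750) is known, with WRKY70, to restrain senescence and to act in salicylic acid signalling. Its log2 signal was 11.11, 11.28, 11.15 and 10.95 in vim1,2,3, against 8.66, 10.43, 8.38 and 8.47 in Col. The vim1,2,3 values were nearly level, the Col value of array 2 stood far above the other Col values, and the groups did not overlap. The ratios were 2.45, 0.85, 2.76 and 2.47, a mean of 2.13 ± 0.87, which is 4.39-fold higher (adjusted p = 0.0205).

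WRKY70 (AT3G56400) was the only WRKY gene tested with a mean ratio below 0. Its log2 signal was 15.67, 15.62, 15.67 and 15.66 in vim1,2,3, against 16.32, 16.37, 16.32 and 16.09 in Col. The spot was saturated in vim1,2,3 on 4 of 4 arrays and in Col on 3 of 4. The ratios were -0.66, -0.75, -0.65 and -0.42 (mean -0.62 ± 0.14, adjusted p = 0.0429), short of 2-fold. The 70 probes saturated in both channels on all arrays had median ratios of -0.66, -0.75, -0.65 and -0.71 on the same arrays, so the WRKY70 ratio gives no fold change. WRKY54 and WRKY55 are neighbours on chromosome 2. WRKY55 (AT2G40740) had ratios of 0.20, 0.72, 0.58 and 0.37 (mean 0.47 ± 0.23, adjusted p = 0.0947), with the vim1,2,3 spot saturated on 1 array.

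WRKY38 (AT5G22570) is known, with WRKY62, as a negative regulator of basal resistance to bacteria. Its log2 signal was 11.54, 10.04, 11.93 and 11.61 in vim1,2,3, against 9.02, 9.44, 9.71 and 9.45 in Col. All vim1,2,3 values were above all Col values, again with array 2 closest to Col. The ratios were 2.53, 0.60, 2.22 and 2.16, a mean of 1.88 ± 0.86, which is 3.67-fold higher (adjusted p = 0.0264). The second WRKY38 probe averaged 1.30. WRKY62 was too dim to be tested, and its ratios were 0.24, 0.64, 0.93 and 0.29.

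WRKY46 (AT2G46400), which acts with WRKY70 and WRKY53 in basal resistance, had the largest mean ratio among the genes not called. On arrays 1 to 4 its log2 signal was 14.76, 13.26, 14.31 and 14.33 in vim1,2,3, against 10.99, 12.91, 11.69 and 12.96 in Col. The groups did not overlap, but the lowest vim1,2,3 value and the highest Col values lay close together. The ratios were 3.77, 0.36, 2.63 and 1.38 (mean 2.03 ± 1.48, adjusted p = 0.0571).

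WRKY53 (AT4G23810), a promoter of leaf senescence, gave different answers by probe. Its brightest probe had ratios of 0.06, -0.10, 0.35 and -0.23 (mean 0.02 ± 0.25, adjusted p = 0.94). The other tested probe had 2.67, -0.48, 2.45 and 1.07, a mean of 1.43. The difference of 1.41 was the largest among the 12 WRKY genes with several tested probes, where the next was 0.58 in WRKY38.

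**Figure D2:**
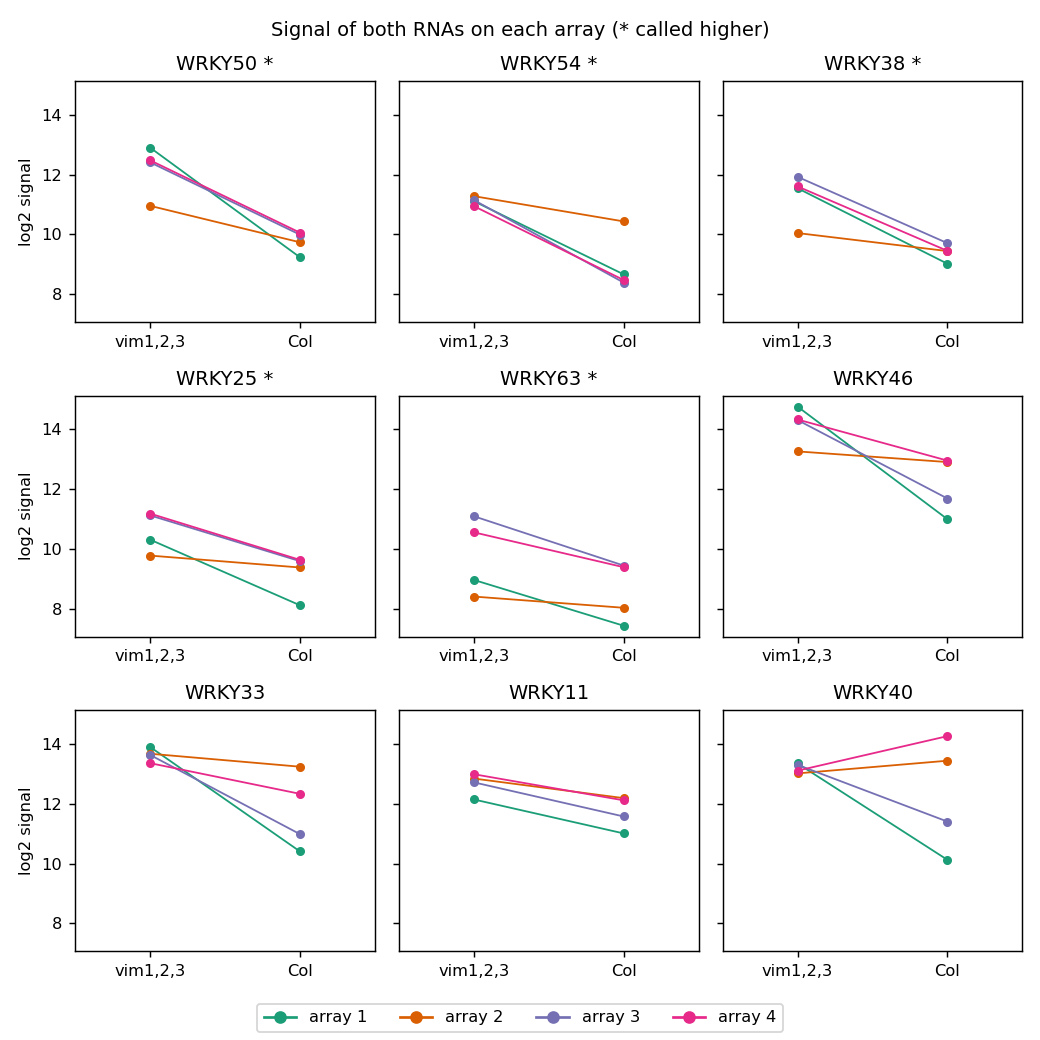
Log2 signal (vertical axis) of 9 WRKY genes in vim1,2,3 RNA (left) and Col RNA (right), with the values of an array joined by a line and an asterisk at the genes called higher. In WRKY33 and WRKY40 the vim1,2,3 points lie close together and the Col points spread widely, while in WRKY63 both channels are higher on arrays 3 and 4.

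WRKY25 and WRKY33 belong to subgroup I and are known targets of the MAP kinases of defence. WRKY25 (AT2G30250) acts in heat tolerance and restrains salicylic acid defence. WRKY25 had log2 signals of 10.31, 9.78, 11.12 and 11.18 in vim1,2,3, against 8.11, 9.38, 9.59 and 9.63 in Col. The groups did not overlap, and the Col value of array 1 stood below the rest. The ratios were 2.20, 0.40, 1.53 and 1.55, a mean of 1.42 ± 0.75, which is 2.68-fold higher (adjusted p = 0.0353).

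WRKY33 (AT2G38470) is needed for resistance to necrotrophic fungi and for camalexin synthesis. Its log2 signal was 13.90, 13.68, 13.64 and 13.36 in vim1,2,3, against 10.40, 13.24, 10.98 and 12.33 in Col. The vim1,2,3 values varied little, with an SD of 0.22, whereas the Col values had an SD of 1.29. The ratios were 3.50, 0.43, 2.65 and 1.03 (mean 1.90 ± 1.42), and at an adjusted p of 0.0597 WRKY33 was not called although the groups did not overlap.

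WRKY11 (AT4G31550), a restrainer of basal resistance, and WRKY15 (AT2G23320), known from salt and oxidative stress, belong to subgroup IId. The log2 signal of WRKY11 was 12.15, 12.85, 12.72 and 12.99 in vim1,2,3, against 11.01, 12.19, 11.58 and 12.12 in Col. The channels overlapped between arrays, but vim1,2,3 was above Col on each. The ratios were 1.14, 0.66, 1.14 and 0.88 (mean 0.95 ± 0.23, adjusted p = 0.0235), 1.94-fold and so just short of 2-fold. WRKY15 had ratios of 2.23, 0.23, 2.07 and 0.98 (mean 1.38 ± 0.95, adjusted p = 0.0551). WRKY22 (AT4G01250), which with WRKY29 lies downstream of flagellin sensing, had ratios of 1.30, -0.13, 1.96 and 0.68 (mean 0.95 ± 0.89, adjusted p = 0.109). WRKY29 was too dim to be tested and averaged -0.07.

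The 3 genes of subgroup IIa encode factors that bind each other and act in defence and abscisic acid responses, and 0 of the 3 were called. WRKY40 (AT1G80840) had log2 signals of 13.35, 13.02, 13.30 and 13.11 in vim1,2,3, against 10.12, 13.44, 11.40 and 14.26 in Col. The vim1,2,3 values were level, and the Col values ran from far below them on arrays 1 and 3 to above them on arrays 2 and 4. The ratios were 3.23, -0.42, 1.90 and -1.16 (mean 0.89 ± 2.03, adjusted p = 0.425), the widest spread of the 25. WRKY60 averaged 0.94 (adjusted p = 0.131) and WRKY18 0.14 (adjusted p = 0.651).

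WRKY63 (AT1G66600, ABO3 in the reference gene table), which acts in abscisic acid and drought responses, had log2 signals of 8.96, 8.41, 11.10 and 10.56 in vim1,2,3, against 7.43, 8.03, 9.44 and 9.39 in Col. Both channels were higher on arrays 3 and 4, and the groups overlapped. Within arrays the ratios were 1.53, 0.38, 1.65 and 1.17, a mean of 1.18 ± 0.58, which is 2.27-fold higher (adjusted p = 0.0345). The Col spot was well above background on 3 of 4 arrays. Its relatives WRKY64 and WRKY67, neighbours on chromosome 1, and WRKY66 were too dim to be tested and averaged -0.05, -0.09 and -0.27. Probe sequences were not used here, so binding of relatives' RNA to a probe was not tested.

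WRKY75, WRKY45 and WRKY6, known from phosphate supply, had means above 0 and were not called. WRKY75 (AT5G13080), which promotes phosphate uptake, had log2 signals of 11.84, 9.90, 12.84 and 12.87 in vim1,2,3, against 8.36, 9.57, 11.95 and 12.19 in Col. As in WRKY63, both channels were higher on arrays 3 and 4 than on arrays 1 and 2. The ratios were 3.48, 0.33, 0.89 and 0.68 (mean 1.34 ± 1.44, adjusted p = 0.129). WRKY45 (AT3G01970), an activator of a phosphate transporter gene, had the same array pattern and ratios of 1.11, -0.11, 1.16 and 1.82 (mean 0.99, adjusted p = 0.0824). WRKY6 (AT1G62300), which acts in senescence and represses PHO1, a phosphate exporter gene, had ratios of 1.87, -0.15, 1.80 and 1.04 (mean 1.14, adjusted p = 0.0808). PHO1 itself was lower on 4 of 4 arrays (-0.80 ± 0.10, adjusted p = 0.0252), short of 2-fold. Of all genes, 22.5% were below 0 on 4 of 4 arrays, and 5.95% were lower by adjusted p alone. A link between WRKY6 and PHO1 in these data was not tested.

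The remaining tested genes had means between 0.63 and 1.07 and were not called. WRKY48, a repressor of basal defence, averaged 1.07 (adjusted p = 0.171), and WRKY41 averaged 0.91 (adjusted p = 0.0849). WRKY41 was level in vim1,2,3, with an SD of 0.08, against an SD of 0.67 in Col. WRKY30, known from oxidative stress, averaged 0.74 (adjusted p = 0.138), WRKY28, an activator of ICS1, 0.65 (adjusted p = 0.193), and WRKY8, which acts in resistance to Botrytis, 0.63 (adjusted p = 0.19).

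Only the tested WRKY genes described so far were sorted by subgroup, not the rest of the family. Among them, 1 of 2 was called higher in subgroup I, 1 of 7 in IIc and 3 of 9 in III. In IIa 0 of 3 were called, in IIb 0 of 1, in IId 0 of 2 and in IIe 0 of 1, while at an unadjusted p under 0.05 the numbers higher were 1, 1, 2 and 1. Median log2 ratios lay between 0.89 for IIa and 1.66 for I.

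The size of the difference depended on the array. The median of the 25 genes was 1.87, -0.01, 1.16 and 1.03 on arrays 1 to 4, while that of all genes stayed between -0.05 and -0.04. At least 2-fold higher were 21, 1, 16 and 13 of the 25, against 8.55%, 5.67%, 7.19% and 8.23% of all genes. The ratio was highest on array 1 in 17 of the 25, against 26.4% of all genes, and lowest on array 2 in 21, against 32.6%. The median SD over arrays was 0.865 for the WRKY genes and 0.368 for all genes. Which RNA differed on array 2 varied by gene: in WRKY54 the Col value was high there, and in WRKY50 and WRKY38 the vim1,2,3 value was low. Over the 25 genes, the median deviation from a gene's own mean signal on array 2 was -0.90 in vim1,2,3 and 0.11 in Col. On array 1 it was 0.02 in vim1,2,3 and -0.86 in Col. The Col spread exceeded the vim1,2,3 spread in 13 of the 25, against 55% of all genes.

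**Figure D3:**
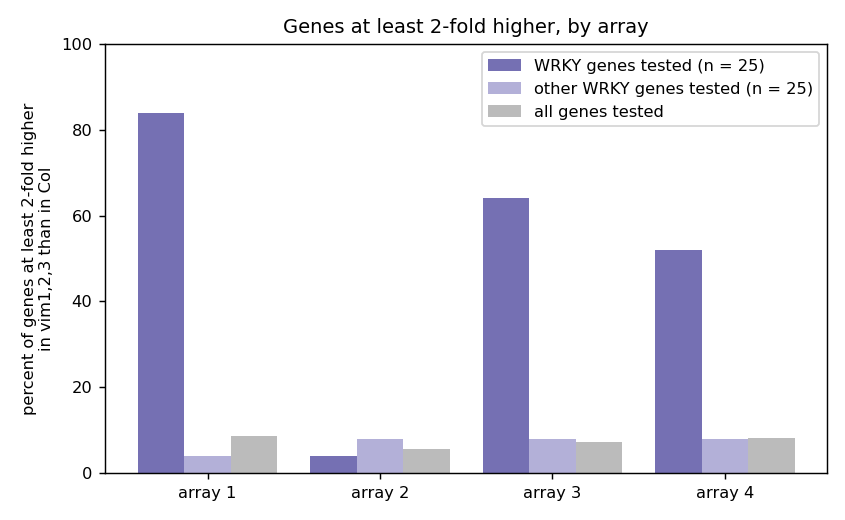
Percent of genes at least 2-fold higher in vim1,2,3 than in Col (vertical axis) on each array, for the 25 WRKY genes described, the 25 other WRKY genes tested, and all genes tested. The share of the WRKY genes described is 84%, 4%, 64% and 52% on arrays 1 to 4, and that of all genes lies between 5.67% and 8.55%.

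The direction was also counted within arrays. In 11 of the 25 genes the ratio was above 0 on 4 of 4 arrays, against 18.5% of all genes, and in 10 on 3 of 4. Below 0 on 4 of 4 was only WRKY70, against 22.5% of all genes. The lowest vim1,2,3 signal was above the highest Col signal in 6 (WRKY50, WRKY54, WRKY38, WRKY25, WRKY46 and WRKY33), against 7.03% of all genes, and the reverse order was seen only in WRKY70, against 7.72%. The WRKY70 spot was saturated, so neither count gives a direction for it. The order of signals compares values across arrays, and some genes, such as WRKY63, shifted between arrays in both channels.

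The calls changed when an array was left out. Without array 1, 1 of the 25 was called higher (WRKY50), without array 2, 16 were, and without array 3 or array 4, 0 were. All genes gave 1.67%, 4.83%, 0.883% and 0.961% in the same fits, and at an unadjusted p under 0.05 the WRKY genes higher numbered 12, 19, 9 and 12, against 11.7%, 16.6%, 10.6% and 11.3% of all genes. Adjusted p over these fits ran from 0.0106 to 0.116 for WRKY50, from 0.00214 to 0.118 for WRKY54, from 0.00328 to 0.134 for WRKY38, from 0.0145 to 0.151 for WRKY25 and from 0.016 to 0.15 for WRKY63. On arrays 1 and 2 alone, where all VIM genes followed the label, 0 WRKY genes were called (lowest adjusted p 0.402), against 0.254% of all genes called higher. At an unadjusted p under 0.05, 4 were higher and 1 was lower (WRKY70) there, against 5.76% and 6.1% of all genes. The median of the 25 genes was 0.94 there.

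**Figure D4:**
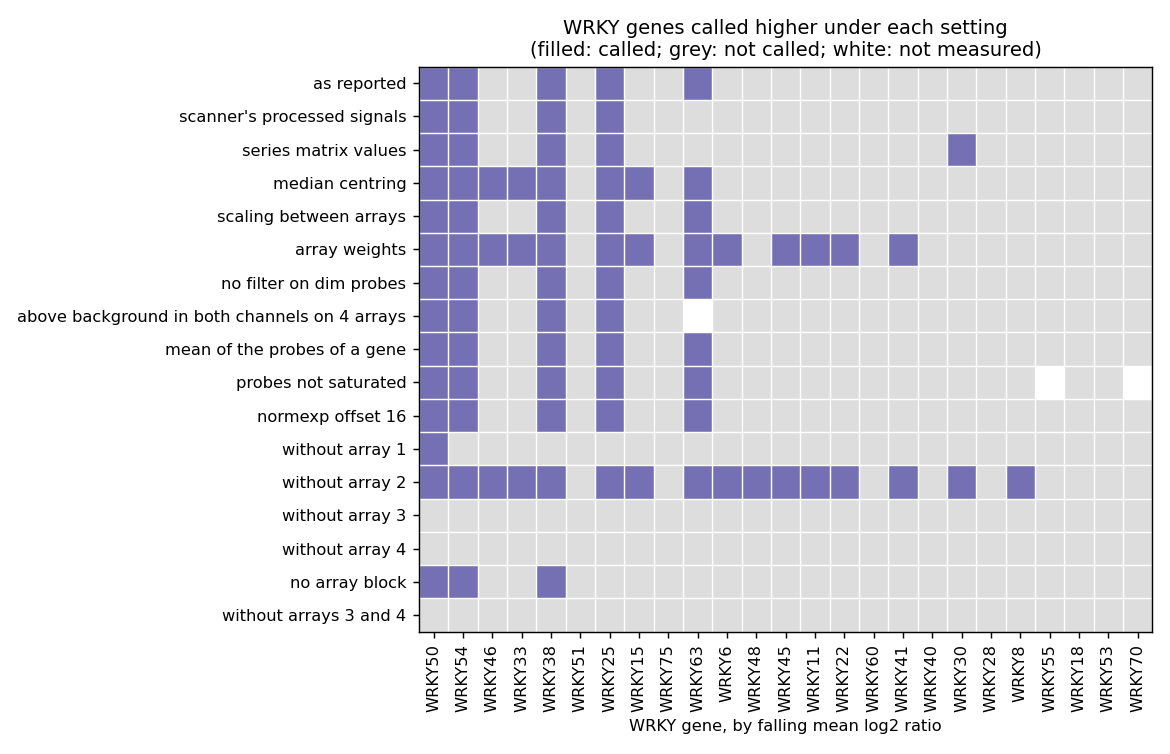
The 25 WRKY genes tested (columns, by falling mean log2 ratio) under each way of processing the data or leaving arrays out (rows), filled where called higher, grey where not called and white where not measured. WRKY50 is filled wherever array 3 and array 4 are both in, and the row without array 2 has 16 filled cells.

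The rest of the family was set beside these genes. Of 38 other genes with a WRKY symbol, 36 had a probe and 25 were tested, and their median log2 ratio was 0.17. WRKY47 (AT4G01720) was called higher, with ratios of 1.21, 0.77, 1.24 and 1.06 (mean 1.07 ± 0.22, adjusted p = 0.0174), and 0 were lower. That is 1 of 25, near the 3.24% of all genes. At an unadjusted p under 0.05, 7 of the 25 were higher, against 15.2% of all genes, and 0 were lower. WRKY65 (0.74, adjusted p = 0.0342) and WRKY36 (0.67, adjusted p = 0.0481) fell short of 2-fold. As in WRKY63, their signals in both channels were higher on arrays 3 and 4 than on arrays 1 and 2. Without array 2 WRKY47 was still the 1 gene called, and without array 1, 3 or 4, or on arrays 1 and 2 alone, 0 were, with 6, 4, 5 and 2 higher at an unadjusted p under 0.05. The difference between the sets was not tested.

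Kinases upstream of the WRKY factors, and partners of the WRKY proteins, were compared next. Of these 13 genes, 2 were called higher, against 3.24% of all genes, and 0 lower, with a median of 0.59. SIB1, which binds WRKY33, had ratios of 3.71, 1.11, 2.11 and 1.85 (mean 2.20, adjusted p = 0.0289). MPK11, a MAP kinase activated by flagellin, averaged 2.11 ± 1.37 (adjusted p = 0.0449). Without arrays 1, 2, 3 and 4 in turn, 1, 4, 0 and 0 of the 13 were called higher, with 5, 8, 5 and 6 higher at an unadjusted p under 0.05, where the shares of all genes are those given above for the same fits.

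Of 13 regulators of salicylic acid, 3 were called higher, against 3.24% of all genes, and 0 lower, with a median of 0.93. These were NIMIN1, an inhibitor of the receptor NPR1 (2.09 ± 1.28, adjusted p = 0.0409), and the salicylic acid synthesis genes ICS1 (1.62 ± 0.98, adjusted p = 0.0419) and PBS3 (1.44 ± 0.92, adjusted p = 0.0474). As in most WRKY genes, array 2 was the lowest, in 13 of the 13. Without arrays 1, 2, 3 and 4 in turn, 0, 6, 0 and 0 were called higher, with 6, 11, 6 and 7 higher at an unadjusted p under 0.05.

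Of 10 genes known to act downstream of WRKY factors, 9 were tested, 4 were called higher, against 3.24% of all genes, and 0 lower, with a median of 1.17. PR1, the classical marker of salicylic acid defence, had log2 signals of 14.0, 12.8, 13.1 and 13.1 in vim1,2,3, against 10.1, 11.1, 9.61 and 10.2 in Col. Its values did not overlap, and its mean ratio of 2.99 ± 0.98 (adjusted p = 0.0106) was above that of any WRKY gene. PR2 averaged 2.11 ± 0.84 (adjusted p = 0.0197), SAG13, which is also among the senescent leaf markers, 2.07 ± 1.17 (adjusted p = 0.0357), and FRK1, a receptor kinase gene of flagellin responses, 1.40 ± 0.58 (adjusted p = 0.026). Without array 1, 2 were called higher (PR1 and PR2), without array 2, 5 were, and without array 3 or array 4, 0 were, while 5 were higher at an unadjusted p under 0.05 in each of these fits. On arrays 1 and 2 alone, 0 genes of the kinases and partners, the salicylic acid regulators and this list were called, with 1, 1 and 5 higher at an unadjusted p under 0.05. The 5 downstream genes not called were mixed. PDF1.2 had ratios of 4.49, 1.73, -1.81 and -2.56 on arrays 1 to 4 (mean 0.46 ± 3.28, adjusted p = 0.805). PR5 averaged 1.17 ± 1.80 (adjusted p = 0.247), PAD3 1.11 ± 0.77 (adjusted p = 0.0606) and CYP71A13 -0.28 ± 1.56 (adjusted p = 0.759). PHO1, given above, averaged -0.80.

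**Figure D5:**
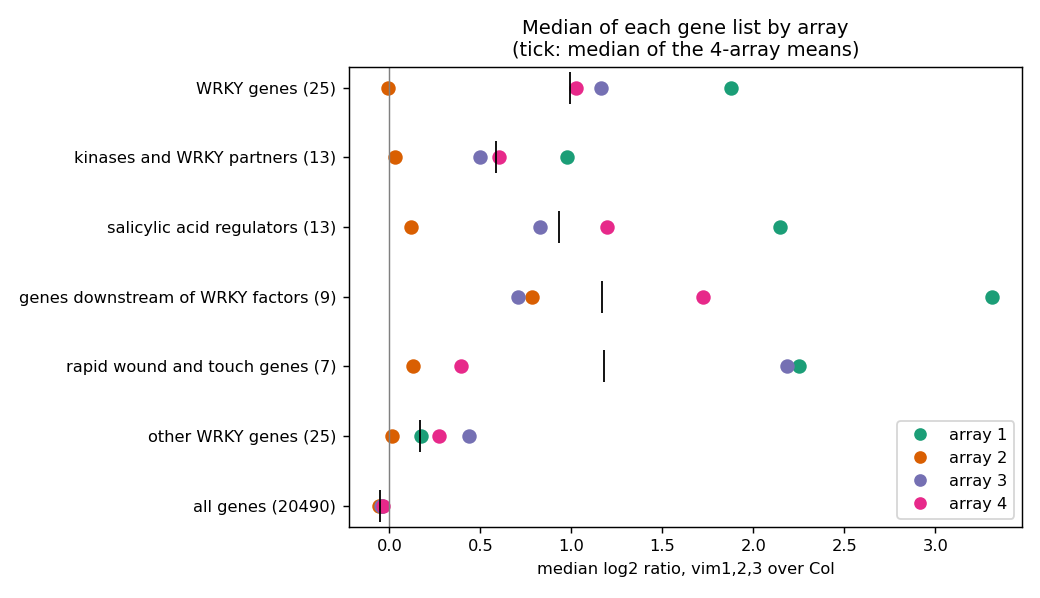
Median log2 ratio of vim1,2,3 over Col (horizontal axis) for each gene list (rows, genes tested in brackets), with a point per array and a black tick at the median of the 4-array means. The WRKY genes, the salicylic acid regulators and the wound and touch genes have array 1 far to the right and array 2 near 0. The other WRKY genes lie between 0.01 on array 2 and 0.44 on array 3, and all genes stay near 0.

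Rapid wound and touch response genes, which respond to handling within minutes, moved with the arrays as well. Of 8, 7 were tested and 0 were called, with 3 higher, against 15.2% of all genes, and 0 lower at an unadjusted p under 0.05. Their medians were 2.25, 0.13, 2.19 and 0.39 on arrays 1 to 4, and their median SD was 0.42 in vim1,2,3 and 1.30 in Col. The vim1,2,3 spot was saturated on 4 arrays in TCH2, on 3 in ZAT12 and on 1 each in TCH4 and ZAT10, with 0 saturated in Col. Saturation caps a signal, so the smaller vim1,2,3 spread of those genes is not read as a difference between the RNAs. With 0 saturated spots, ERF5, ERF104 and ERF6 had SDs of 0.76, 0.89 and 0.23 in vim1,2,3, against 1.30, 1.47 and 0.29 in Col. The difference in spread was not tested. ERF5 averaged 1.63 ± 1.08 (adjusted p = 0.05) and ERF104 1.81 ± 1.57 (adjusted p = 0.0815). Without array 2, 1 of the 7 was called higher. ZAT10, chosen after its values were seen, had log2 signals of 15.3, 14.4, 15.2 and 14.7 in vim1,2,3, against 11.7, 15.3, 13.0 and 15.0 in Col. Like WRKY40, ZAT10 was low in Col on arrays 1 and 3 and high in Col on arrays 2 and 4. The part of these genes' response in the WRKY values was not tested.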

How the data were processed

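Total RNA had been amplified, dye-labelled and hybridised to 4 Agilent 2-colour arrays on 1 slide, per the labels and the file headers, so no slide or scan batch could be tested. Per the file headers, Agilent Feature Extraction (version 10.7.3.1) quantified the spots, and the deposited median intensity of each spot and its background was the starting point. The scanner's log10 ratio of red over green, per the file headers, was used to check direction. The deposited series matrix, a log2 ratio per probe of which neither the normalization nor the centring is stated, had column medians of -0.09, 0.01, -0.04 and -0.03, correlated at 0.998 to 0.999 with the scanner's ratios, and was used as an alternative without 7 probes that differed by more than 1.

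In limma 3.58.1 (R 4.3.3, package data.table, version 1.17.8), background was corrected by normexp (offset 50) and each array normalized by loess, with 1417 control spots of 45220 at weight 0. Channel signals had an Aquantile step. Probes were named through transcript accessions matched to RefSeq gene names of TAIR10.1 (34185 of 43603 probes), a build that is not that of the array design, so no coordinates are given. Spots marked as outliers were left out, and the brightest tested probe stood for a gene. Ratios were fitted with an intercept (lmFit, eBayes) and p-values adjusted by Benjamini-Hochberg over 20490 genes, and the number of arrays limits the precision. The fit was run on simulated data with independent noise for each gene and array. Shifts of many genes together on an array were not simulated, so that run does not cover them.

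The WRKY genes, lists and tests were chosen with earlier results of these data known. All 30 WRKY genes are named. Values in full are given for those called, those past the p threshold alone, and the uncalled ones with the largest mean in each direction. Of the other lists, called genes are named, up to 4, or those with the smallest p where none was called, and up to 6 called genes of the rest of the family. WRKY40, WRKY75, WRKY51 and others are shown with array values beyond that rule, after their values were seen. The uncalled downstream genes are also given beyond it. Alternatives varied the signal, normalization, filters, probes, array weights and arrays. Planned searches of promoters and proteins were not run, because sequence tables were not used here.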

Additional observations from a re-analysis of the deposited data

Results flagged for a closer look

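Among 75 sets of 4 array values (ratio, vim1,2,3 signal and Col signal of the 25 WRKY genes tested), 5 had a value far from the other 3, and chance gives about 1 in 20. Of these, 3 were Col signals, 1 a vim1,2,3 signal and 1 a ratio. The WRKY54 ratio on array 2 was 0.85, with the others between 2.45 and 2.76. Its Col signal on the same array was 10.43, with the others between 8.38 and 8.66. The WRKY25 Col signal on array 1 was 8.11, with the others between 9.38 and 9.63. The WRKY30 Col signal on array 1 was 8.72, with the others between 8.27 and 8.34. The WRKY70 vim1,2,3 signal on array 2 was 15.62, with the others between 15.66 and 15.67, all from saturated spots.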

How the results depend on the processing

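The count of WRKY genes called higher, 5 as reported, was 8 with median centring in place of loess, 13 with array weights, 0 to 16 when arrays were left out in turn, and 0 on arrays 1 and 2 alone, an alternative chosen after the VIM values were seen. Each array pairs a vim1,2,3 and a Col RNA, and without that pairing as a replicate block 3 were called (WRKY50, WRKY54 and WRKY38). With no minimum fold change 6 were higher and 1 was lower (WRKY70). The other alternatives gave 4 or 5. WRKY63 was lost with the scanner's processed signals and with the series matrix (adjusted p = 0.0675 and 0.0597). The WRKY53 ratio of 0.02 became -0.069 with processed signals, -0.12 with the series matrix and -0.018 on arrays 1 and 2, and ran from -0.088 to 0.10 with arrays left out in turn. That of WRKY18 ran from -0.036 to 0.27. Over genes and alternatives, 346 values kept their direction and side of the threshold, 23 lost and 23 gained the call. The other lists were rerun after the data were seen. The kinases and partners called higher, 2 as reported, numbered 1 with processed signals, the series matrix, scaling between arrays or no filter on dim probes, 0 on arrays 1 and 2, and 0 to 4 with arrays left out in turn. The salicylic acid regulators, 3 as reported, numbered 1 with processed signals or scaling, 6 with array weights, 0 with no filter, 0 on arrays 1 and 2, and 0 to 6. The downstream genes, 4 as reported, numbered 2 without the replicate block, 0 on arrays 1 and 2, and 0 to 5. The wound and touch genes, 0 as reported, numbered 1 with median centring, the stricter filter, the mean of probes or unsaturated probes, 3 with array weights, and 0 to 1. The other WRKY genes, 1 as reported, numbered 0 with median centring, the mean of probes, no replicate block or arrays 1 and 2, and 0 to 1. The median of the WRKY genes stayed between 0.83 and 1.36. Processed signals, series matrix and median centring gave a median over all genes of -0.14, -0.11 and -0.17, against -0.05 as reported, and 42.3%, 46.8% and 42.2% of their calls were higher, against 60.2%. The causes were not tested. Spots at saturation (WRKY70, and WRKY55 on 1 array) and dim spots (5 WRKY genes) limit what the arrays can show. So do the saturated vim1,2,3 spots of TCH2, ZAT12, TCH4 and ZAT10.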
